A study of Mus musculus with 9 samples.

Results

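The comparison covered 6 of the 9 libraries of the series: 3 hearts of wild-type mice after transverse aortic constriction (TAC) and 3 control hearts of wild-type mice, chosen by the sample titles. TAC is a surgical narrowing of the aortic arch that raises the pressure against which the left ventricle pumps. The TAC hearts carry a time of 12 weeks in their titles, and the controls, given without a time, are called sham in the study's design. The mice were male and 8 to 12 weeks old at surgery. The other 3 libraries were KO-TAC hearts at 12 weeks of mice with the genotype c-Myc flox/flox and Tcf21 iCre, a fibroblast-directed deletion induced with tamoxifen at 45 mg/kg for 5 days. They entered only the choice of genes with enough counts, the scaling of the libraries and the shared estimate of the spread. Tamoxifen treatment of the wild-type mice is neither stated nor denied in the labels. The labels do not say that each heart is a separate mouse, and a p-value here reflects only how far these libraries spread. What was compared is the level of 19051 genes in RNA of the heart, with no cell type sorted out.

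A ventricle under pressure load is known to enlarge its muscle cells, to switch back on genes of the fetal heart such as the natriuretic peptides and skeletal actin, and to lay down matrix between the cells. Over time it burns less fatty acid, moves calcium more slowly and repolarizes later, as pump, enzyme and potassium channel genes are turned down. Mechanical stretch and hormones such as endothelin and angiotensin act early in this sequence through immediate early transcription factors, while TGF-beta drives fibroblasts to make matrix.

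Total counts of the 6 libraries were 59702513 to 90735311, and mitochondrially encoded genes held 26.3% to 38.5% of them. Cardiac myosin, actin and troponin genes were abundant in every heart. Of the atrial muscle markers Myl7 stood at 0.758 CPM or less and Sln at 0 counts in 5 of 6 hearts. The heart with Sln counts was TAC replicate 1, at 44. Of the 9 atrial markers measured, however, 7 had a log2 difference above 0, and the list is given with Nppa below. CPM are counts set to a common library total, with the total adjusted by TMM factors that discount the most changed genes. With edgeR's quasi-likelihood test no gene passed an adjusted p of 0.05 (percent called 0, lowest adjusted p 0.083), and 4054 had an unadjusted p under 0.05, 13.2% of all genes higher and 8.08% lower in TAC. DESeq2 called 1626 genes (5.67% higher, 2.87% lower) and limma-voom with sample weights 5756. The groups did not overlap for 14.1% of genes higher in TAC and 14% lower, and 51.5% of genes had a log2 difference above 0. TAC hearts differed among themselves: 12.6%, 3.20% and 32.3% of genes lay more than 2-fold from the control mean in TAC replicates 1, 2 and 3. The share was 0.509% to 0.777% in control hearts, each set against the mean of the other controls. Without TAC replicate 2 edgeR called 5477 genes (13.5% higher, 14% lower), and without TAC replicate 3 it called 2. The number of calls thus depends on which hearts enter, and the values of each heart are given with the results. In bulk tissue fewer cells of a type and less RNA for each cell cannot be told apart, which holds for each result.

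**Figure D1:**
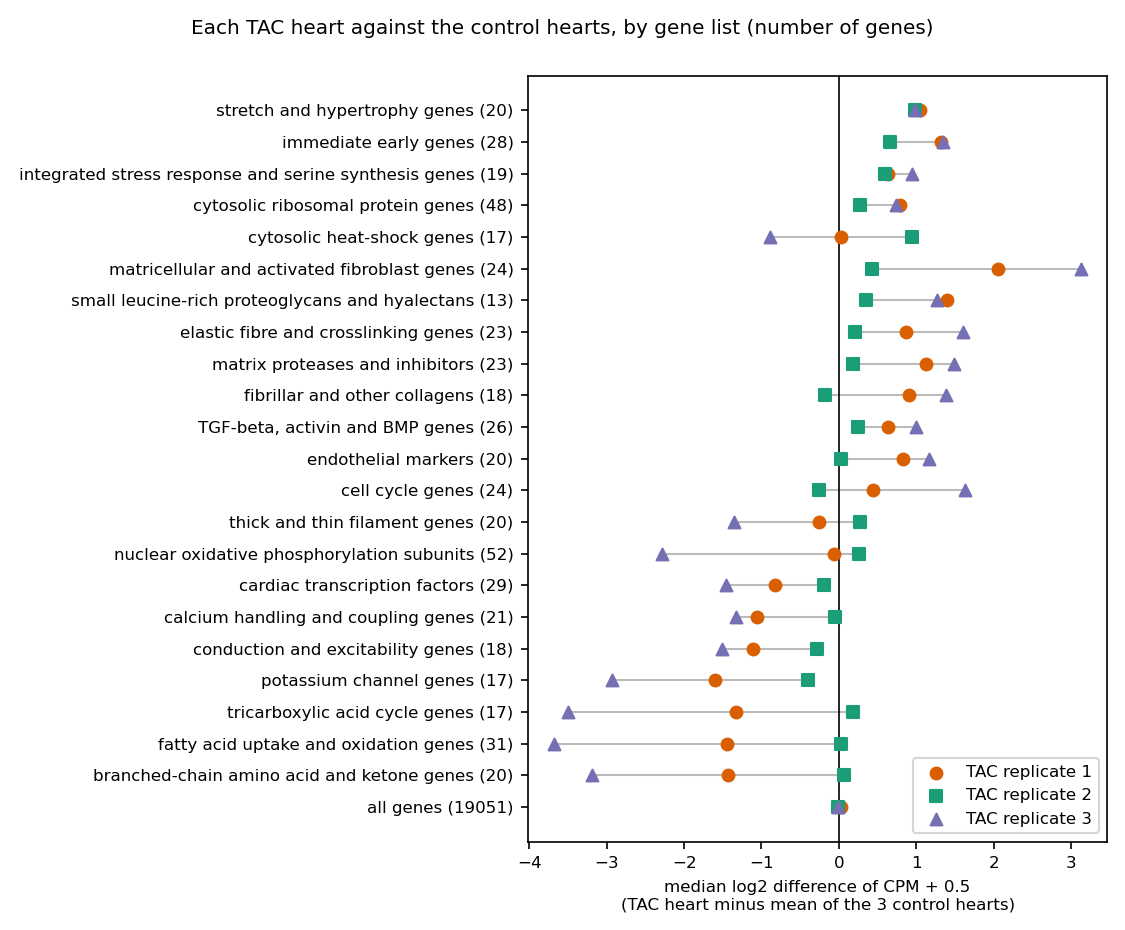
Median over the genes of each list of the log2 difference between 1 TAC heart and the mean of the control hearts (x axis, log2 of CPM + 0.5), for TAC replicate 1 (circles), 2 (squares) and 3 (triangles), with the number of genes in brackets. Stretch, immediate early and integrated stress response genes lie at 0.60 to 1.35 in all 3 hearts, whereas fatty acid oxidation genes lie at 0.03 in TAC replicate 2 and at -3.68 in TAC replicate 3.

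The gene lists divided into programs that stood at similar distances from control in the 3 TAC hearts and programs whose distance differed widely, as the plot of list medians shows. Stretch and hypertrophy genes had medians of 1.05, 0.99 and 0.98 in TAC replicates 1, 2 and 3. Immediate early genes stood at 1.33, 0.66 and 1.35, and integrated stress response genes at 0.64, 0.60 and 0.95. Matricellular genes were at 2.05, 0.43 and 3.13. The muscle cell's own machinery spread more widely. Potassium channel genes stood at -1.60, -0.40 and -2.93, and tricarboxylic acid cycle genes at -1.33, 0.19 and -3.50. All genes together lay at 0.03, -0.01 and -0.01. In TAC replicate 2 the stretch genes thus stood at the level of the other TAC hearts, while its metabolic lists were near or a little above control. With 1 library for each heart this difference between hearts has no test.

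Of the 20 stretch and hypertrophy genes, 18 had a log2 difference above 0 (51.5% of all genes), 12 were higher in every TAC heart than in every control (14.1% of all genes), and 9 passed DESeq2 in that direction (5.67%). In TAC replicates 1, 2 and 3 taken singly, 15, 18 and 14 of the 20 were above all controls, against 41.6%, 33.9% and 42.3% of all genes. Their median log2 difference was 1.17, against 0.03 for all genes. Nppa (chromosome 4, 148000722 to 148002079, GRCm38), which encodes atrial natriuretic peptide, a hormone that lowers blood volume and pressure, was counted at 128, 59.4 and 141 CPM in the control hearts and 1245, 385 and 1120.0 CPM in the TAC hearts. Each TAC heart was above each control, with TAC replicate 2 the lowest of the 3, a log2 difference of 3.07 (SE 0.65; adjusted p = 0.13 by edgeR and 3.8e-05 by DESeq2). Nppb, for B-type natriuretic peptide, stood at 133, 35.5 and 86.9 CPM in the control hearts and 371, 387 and 205 CPM in the TAC hearts, a log2 difference of 1.91 (SE 0.47; edgeR adjusted p = 0.14, DESeq2 0.0022). Here TAC replicate 2 was the highest heart and TAC replicate 3 the lowest TAC heart, still above each control.

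Nppa also marks atrial muscle, as do the 8 other measured genes of the atrial list. The list of 9 summed to 95.8 to 187 CPM in control and 1311, 441 and 1229.6 CPM in TAC hearts, most of it Nppa. DESeq2 called 3 of its members higher (background 5.67%): Nppa, Kcna5 and Dkk3, a secreted Wnt modulator that was at 2.30, 1.32 and 1.24 CPM in control and 16.6, 2.81 and 40.4 CPM in TAC hearts. Among the rest, Myl4, an atrial myosin light chain, was at 0.956, 1.89 and 1.24 CPM in control and 3.61, 1.25 and 1.98 CPM in TAC hearts (DESeq2 adjusted p = 0.29). The part of atrial tissue in the Nppa result was not tested.

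Acta1, skeletal muscle actin, was at 166, 20.2 and 151 CPM in the control hearts and 1914, 568 and 523 CPM in the TAC hearts, with a log2 difference of 3.16 (SE 0.99; edgeR adjusted p = 0.15, DESeq2 0.0061). Control replicate 2 was far below the other controls for this gene and was also the lowest control for Nppa, Nppb and Ankrd1, so the controls themselves spread widely in the fetal genes. Ankrd1, a stretch-responsive nuclear and titin-binding protein, was at 997, 330.0 and 929.5 CPM in the control hearts and 2483, 1571 and 1188 CPM in the TAC hearts (log2 difference 1.22, SE 0.53; DESeq2 adjusted p = 0.085). Ccn2, the secreted matrix regulator also called connective tissue growth factor, was at 42.0, 56.9 and 50.7 CPM in the control hearts and 266, 224 and 383 CPM in the TAC hearts. Its lowest TAC heart was far above its highest control, and its log2 difference of 2.54 (SE 0.33) gave an edgeR adjusted p of 0.083 and a DESeq2 adjusted p of 2.6e-11. Tnfrsf12a, the receptor of the cytokine TWEAK, was at 24.1, 10.6 and 16.2 CPM in control and 50.4, 96.4 and 36.1 CPM in TAC hearts. Rcan1, a calcineurin target and inhibitor, was at 59.5, 43.7 and 60.1 CPM in control and 81.4, 195 and 119 CPM in TAC hearts. Both genes were highest in TAC replicate 2. Not every stretch gene followed: Csrp3 (254 CPM in TAC replicate 3, 659 to 757 CPM in control hearts) and Hopx (5.29 against 168 to 192 CPM) were low in TAC replicate 3.

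The promoters of these fetal genes are shown because these genes stood above control together in all 3 TAC hearts. The letters are the 250 bases before the start listed by RefSeq (GRCm38.p6), 5′ to 3′ on the strand of the gene, and a gene may have other starts. Capitals mark every match, on either strand, to the MCAT element bound by TEAD factors (CATTCC or GGAATG), to a GATA site (GATAA or TTATC) and to the CArG box bound by serum response factor. Nppa lies on the plus strand at chr4:148000472-148000721, Nppb on the plus strand at chr4:147985650-147985899 and Acta1 on the minus strand at chr8:123894776-123895025.
Nppa: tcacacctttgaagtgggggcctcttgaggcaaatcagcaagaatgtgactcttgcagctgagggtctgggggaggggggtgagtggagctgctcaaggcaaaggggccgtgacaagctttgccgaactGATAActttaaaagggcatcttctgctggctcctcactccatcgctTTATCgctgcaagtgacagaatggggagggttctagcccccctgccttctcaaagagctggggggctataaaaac
Nppb: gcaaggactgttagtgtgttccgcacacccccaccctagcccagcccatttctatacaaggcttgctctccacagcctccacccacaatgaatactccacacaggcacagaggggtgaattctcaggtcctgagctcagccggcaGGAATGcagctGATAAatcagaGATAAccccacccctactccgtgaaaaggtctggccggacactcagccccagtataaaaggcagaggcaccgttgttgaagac
Acta1: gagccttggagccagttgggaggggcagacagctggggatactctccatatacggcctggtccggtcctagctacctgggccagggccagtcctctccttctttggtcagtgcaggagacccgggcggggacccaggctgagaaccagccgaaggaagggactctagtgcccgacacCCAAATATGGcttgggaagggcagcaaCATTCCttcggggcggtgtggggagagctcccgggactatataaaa
Nppa held 2 GATA matches and 0 MCAT or CArG matches, Nppb held 1 MCAT match and 2 GATA matches, and Acta1 held 1 MCAT match and 1 CArG box. Across 12672 promoters of tested genes, 11% held MCAT, 15.1% GATA and 1.2% a CArG box, and among the 17 stretch genes with a promoter entry these were 3, 5 and 2 genes. A match is a description of the letters and not a measured site. Tead1, a factor that binds MCAT elements, was counted at 190.5, 134 and 157 CPM in the control hearts and 75.4, 5.49 and 66.6 CPM in the TAC hearts. All TAC hearts were below all controls, and TAC replicate 2 alone was more than 8-fold below each of the other 5 hearts.

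All 28 measured immediate early genes had a log2 difference above 0, with a median of 1.20. These are transcription factors and feedback phosphatases induced within minutes of a stimulus, without new protein synthesis. No member was lower in TAC, 22 of 28 were higher in every TAC heart than in every control (background 14.1%) and 22 passed DESeq2 (background 5.67%). The remaining listed gene, Fosl1, had 15 counts or fewer in each heart and was not tested. Atf3, a stress-induced repressor of the ATF family, was at 2.55, 4.06 and 3.13 CPM in the control hearts and 23.6, 28.9 and 12.9 CPM in the TAC hearts, a log2 difference of 2.74 (SE 0.34; edgeR adjusted p = 0.083, DESeq2 1.1e-10). Without TAC replicate 3 it was 1 of the 2 genes that edgeR called, at 8.01-fold (adjusted p = 0.025). Nr4a3, an orphan nuclear receptor of the NR4A family, was at 2.02, 2.28 and 1.17 CPM in the control hearts and 9.73, 30.2 and 9.07 CPM in the TAC hearts (log2 difference 3.16, SE 0.53; DESeq2 adjusted p = 1.3e-06). Both genes were highest in TAC replicate 2.

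A different order of hearts held for other members. Egr1, a zinc finger factor induced by growth signals, was at 12.5, 24.9 and 13.1 CPM in control and 104, 19.2 and 68.5 CPM in TAC hearts. Nr4a1, of the same receptor family as Nr4a3, was at 11.5, 16.3 and 9.70 CPM in control and 76.4, 20.1 and 51.0 CPM in TAC hearts. Junb, a subunit of AP-1, was at 12.99, 16.9 and 14.4 CPM in control and 41.4, 19.2 and 58.4 CPM in TAC hearts. In these 3 genes TAC replicate 2 lay inside the controls (Egr1) or just above them, and the other TAC hearts were well above. Maff, a small MAF factor, was at 4.94, 5.89 and 4.81 CPM in control and 20.1, 16.0 and 33.6 CPM in TAC hearts (log2 difference 2.16, SE 0.29; edgeR adjusted p = 0.083, DESeq2 8.8e-08). For Fos, the partner of Jun in AP-1, control replicate 2 came close to TAC replicate 2, with 1.51, 5.52 and 1.64 CPM in control against 13.4, 7.02 and 12.1 CPM in TAC hearts. Myc itself, the transcription factor gene targeted in the KO-TAC line and not in these mice, was at 2.145, 2.47 and 1.55 CPM in the control hearts and 8.93, 6.22 and 14.2 CPM in the TAC hearts (log2 difference 2.25, SE 0.42; edgeR adjusted p = 0.13, DESeq2 9.7e-05).

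Of the 23 immediate early genes with a promoter entry, 13 (56.5%) held the core of the cAMP response element (TGACG or CGTCA), against 25% of all 12672. For the AP-1 element (TGANTCA) these were 0 of 23 against 4.75%. The core is bound by CREB and ATF factors, and the full palindromic element holds both of its spellings. Atf3 (minus strand, chr1:191183334-191183583) and Nr4a3 (plus strand, chr4:48045055-48045304) are shown with the cores in capitals, as the members of the list among the 12 genes of all whose TAC hearts stood farthest clear of the controls.
Atf3: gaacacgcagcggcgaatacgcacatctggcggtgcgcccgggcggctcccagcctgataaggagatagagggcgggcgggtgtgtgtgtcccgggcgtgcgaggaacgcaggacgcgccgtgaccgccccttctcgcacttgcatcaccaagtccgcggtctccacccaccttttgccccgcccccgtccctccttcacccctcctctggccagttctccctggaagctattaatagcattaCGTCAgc
Nr4a3: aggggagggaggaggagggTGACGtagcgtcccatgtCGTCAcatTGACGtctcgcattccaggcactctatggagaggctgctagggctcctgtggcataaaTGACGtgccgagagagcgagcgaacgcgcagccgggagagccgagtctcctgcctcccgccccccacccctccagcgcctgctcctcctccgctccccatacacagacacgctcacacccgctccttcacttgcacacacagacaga
Atf3 held 1 core and Nr4a3 held 4. No binding was measured, and the share is a description of letters in a list whose members are known by their inducibility.

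**Figure D2:**
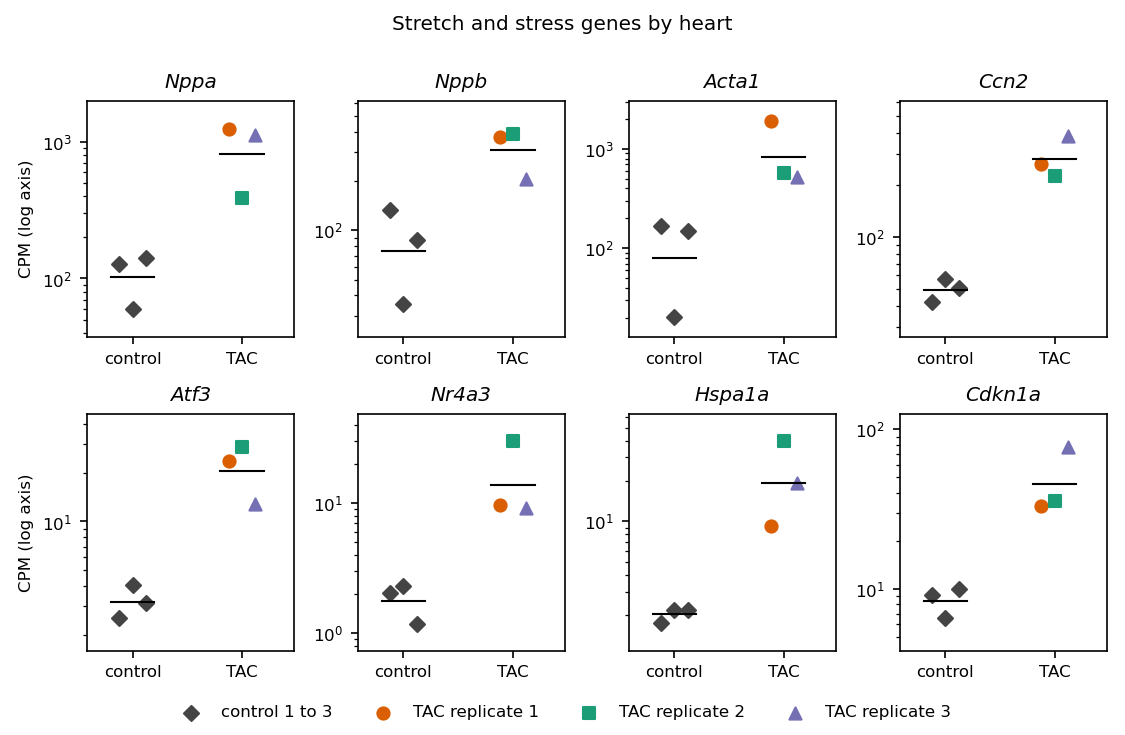
Normalised level (CPM, log axis) of 8 genes in each control heart (diamonds) and in TAC replicates 1 (circle), 2 (square) and 3 (triangle), with lines at the geometric means. In all 8 genes the lowest TAC heart lies above the highest control, and TAC replicate 2 is the highest heart for Nppb, Atf3, Nr4a3 and Hspa1a.

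Among 19 integrated stress response genes, which answer amino acid shortage and misfolded protein through the factor ATF4, 16 had a log2 difference above 0 (background 51.5%), 9 did not overlap (background 14.1%) and 7 passed DESeq2 (background 5.67%), all higher (median 0.77). Atf4 was at 46.0, 46.7 and 45.3 CPM in the control hearts and 71.7, 83.7 and 107 CPM in the TAC hearts (log2 difference 0.93, SE 0.21; DESeq2 adjusted p = 0.0030). Ddit3, the pro-death factor CHOP, was at 12.4, 12.1 and 11.5 CPM in control and 23.9, 21.3 and 46.8 CPM in TAC hearts. Phgdh, which starts serine synthesis, was at 0.427, 0.582 and 0.454 CPM in control and 1.67, 0.998 and 2.31 CPM in TAC hearts. Each of these 3 genes had all TAC hearts above all controls. The chaperones of the endoplasmic reticulum had a median of 0.14, and medians of 0.02, 0.06 and 0.15 in TAC replicates 1, 2 and 3. DESeq2 called none of the 18 (background 5.67% higher and 2.87% lower). Of the 18, 3 were higher and 1 lower in every TAC heart (background 14.1% and 14%). Ddit4, an inhibitor of the growth kinase mTOR, was the other gene that edgeR called without TAC replicate 3 (4.79-fold, adjusted p = 0.025), at 11.3, 13.7 and 12.3 CPM in the control hearts and 65.3, 54.8 and 35.0 CPM in the TAC hearts.

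Cytosolic heat-shock genes were highest in TAC replicate 2, where 16 of 17 exceeded all controls (33.9% of all genes did so in that heart) and the median was 0.94. In TAC replicate 3 the median was -0.89. The inducible Hspa1a was at 1.74, 2.21 and 2.19 CPM in the control hearts and 9.28, 39.4 and 19.3 CPM in the TAC hearts (log2 difference 3.47, SE 0.47; edgeR adjusted p = 0.083, DESeq2 5.3e-10), and without TAC replicate 1 it was the only gene edgeR called, at 14.3-fold (adjusted p = 0.042). Hspa1a and Hspa1b are near-identical copies, so reads may be split between them, and Hspa1b was at 2.31, 1.64 and 2.56 CPM in control and 6.51, 29.8 and 15.8 CPM in TAC hearts. The muscle chaperone Hspb7 was at 1960.5, 1573 and 1726 CPM in control and 1163, 2794 and 201 CPM in TAC hearts, above control in TAC replicate 2 only. Cryab, alpha-B crystallin, was at 814, 826 and 848 CPM in control and 1463, 1249.9 and 314 CPM in TAC hearts, below control in TAC replicate 3 only.

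In the p53 and growth arrest list 11 of 16 genes had a log2 difference above 0 (51.5% of all genes), with medians of 0.81, 0.16 and 1.16 in TAC replicates 1, 2 and 3. Cdkn1a, an inhibitor of cell cycle kinases, was at 9.11, 6.56 and 9.96 CPM in the control hearts and 33.1, 35.7 and 77.9 CPM in the TAC hearts (log2 difference 2.52, SE 0.39; DESeq2 adjusted p = 7.7e-07), and 6 of 16 members passed DESeq2 higher and 1 lower (background 5.67% and 2.87%). Gadd45a, a stress sensor of the same list, was below every control, with 15.3, 15.2 and 15.1 CPM in control and 6.58, 9.19 and 5.90 CPM in TAC hearts (DESeq2 adjusted p = 0.00022, lower). The metallothionein Mt2, which binds zinc and copper, was at 10.4, 12.0 and 11.5 CPM in control and 37.0, 51.2 and 55.6 CPM in TAC hearts (DESeq2 adjusted p = 0.00014).

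The filament genes of contraction stood a little above control in TAC replicate 2 and below it in the others, most of all in TAC replicate 3. The filament list had medians of -0.25, 0.27 and -1.36 in TAC replicates 1, 2 and 3. In TAC replicate 2, 13 of its 20 genes were above all controls and 1 below (33.9% and 34.3% of all genes). Of 20 thick and thin filament genes 16 had a log2 difference below 0, with a median of -0.30 (0.09 without TAC replicate 3). DESeq2 called none of them (background 5.67% higher and 2.87% lower). Myh6, the fast cardiac myosin of the adult mouse, was at 33377, 33674 and 33579 CPM in the control hearts and 13686, 33447 and 5419 CPM in the TAC hearts. TAC replicate 2 lay within the controls, and the other TAC hearts were far below them. Myh7, the slow fetal myosin, was at 1267, 999.9 and 1269 CPM in the control hearts and 3991, 1899 and 1939 CPM in the TAC hearts, above every control in each TAC heart (log2 difference 1.147, SE 0.50; DESeq2 adjusted p = 0.078), though an antisense gene overlaps it and the labels do not state the strand setting of the counts. Per kilobase of exon Myh7 made up 2.88%, 2.27% and 2.86% of the 2 myosins in control hearts, and 18.5%, 4.25% and 21.8% in TAC replicates 1, 2 and 3. Actc1, cardiac actin, was at 6464, 5653 and 5889 CPM in the control hearts and 4298, 10155 and 439 CPM in the TAC hearts, so that the lowest and the highest of the 6 hearts were both TAC hearts.

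Beside the low muscle genes of TAC replicate 3, markers of some other cell types summed to more CPM and those of others did not. The TMM factor was 1.45 in TAC replicate 3 and 0.85 to 0.95 in the other control and TAC hearts. Shares of the raw counts in TAC replicate 3 are therefore larger, beside the other hearts, than these sums show. The 20 filament genes summed to 81864 to 84549 CPM in control hearts and to 59407, 97220.2 and 21533 CPM in the TAC hearts. The 20 endothelial markers, of which 19 had a log2 difference above 0, summed to 2245 to 2352 CPM in control and 4109, 2655 and 6094 CPM in TAC hearts. The 6 measured erythroid markers summed to 738 to 1167 and 762, 1432 and 3476 CPM. Smooth muscle and pericyte markers summed to 2836 to 3056 CPM in control and 2662, 3386 and 1563 CPM in TAC hearts, lowest in TAC replicate 3. Endocardial and lymphatic markers were at 182 to 201 CPM in control hearts, 156 and 181 CPM in TAC replicates 2 and 3, and within the control range in TAC replicate 1. Gene by gene, 7 of these 11 had a log2 difference above 0 (51.5% of all genes), with medians of 0.95, 0.03 and 0.26 in TAC replicates 1, 2 and 3. DESeq2 called 4 of the 11 higher and 1 lower (background 5.67% and 2.87%). Adipocyte markers were at 21.4 to 29.3 CPM in control and 32.6, 37.6 and 24.2 CPM in TAC hearts. What part the mix of cell types has in the muscle results was not tested.

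Calcium handling genes had a median log2 difference of -0.72, with 7 of 21 lower in every TAC heart (14% of all genes) and 2 lower by DESeq2 (2.87% of all genes). Atp2a2, the pump that returns calcium to the sarcoplasmic reticulum (chromosome 5, 122453513 to 122502225, GRCm38), was at 12688, 13447 and 12359 CPM in the control hearts and 2370.2, 12226 and 449 CPM in the TAC hearts. TAC replicate 2 lay just under the controls and TAC replicate 3 was the lowest. The edgeR log2 difference was -1.36 (SE 0.95; adjusted p = 0.41). It was -3.19 without TAC replicate 2 (adjusted p = 0.021) and -0.82 without TAC replicate 3 (adjusted p = 0.59). Ryr2, the calcium release channel, was at 1606, 1335 and 1184 CPM in the control hearts and 315, 1032 and 89.3 CPM in the TAC hearts (log2 difference -1.52, SE 0.75; DESeq2 adjusted p = 0.14). Pln, which restrains the pump, was at 4892, 4942 and 4932 CPM in control and 1377, 4497 and 188 CPM in TAC hearts. An even shift was seen in Cacna1h, a T-type calcium channel, with 10.5, 20.6 and 13.1 CPM in control and 4.55, 4.65 and 5.73 CPM in TAC hearts (log2 difference -1.57, SE 0.41; DESeq2 adjusted p = 0.011). Bin1, a protein of the T-tubule membrane, was the 1 member of the list that DESeq2 called higher, at 8.53, 6.94 and 8.12 CPM in control hearts and above these in each TAC heart (log2 difference 1.16, SE 0.36; DESeq2 adjusted p = 0.043).

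Potassium channel genes were the most uniform of the electrical lists: 16 of 17 had a log2 difference below 0 and 15 were lower in all 3 TAC hearts than in all controls (background 14%), 5 of them by DESeq2 (background 2.87%). The median log2 difference was -1.31, and without TAC replicate 2 edgeR called 14 lower (14% of all genes in that fit). Kcnj5, a subunit of the acetylcholine-gated channel, was at 76.3, 72.9 and 72.3 CPM in the control hearts and 10.3, 39.4 and 1.91 CPM in the TAC hearts (log2 difference -2.10, SE 0.80; DESeq2 adjusted p = 0.054). Its edgeR log2 difference was -3.61 without TAC replicate 2 (adjusted p = 0.011) and -1.58 without TAC replicate 3 (adjusted p = 0.25). Kcnh2, the channel of the rapid delayed rectifier, was at 67.9, 95.6 and 92.9 CPM in control and 31.5, 46.0 and 9.02 CPM in TAC hearts (DESeq2 adjusted p = 0.025). Kcnd2, of the transient outward current of the mouse ventricle, was at 25.5, 25.2 and 22.9 CPM in control and 2.19, 22.6 and 0.405 CPM in TAC hearts, near control in TAC replicate 2. The exception was Kcna5, of the ultrarapid current, which was above every control at 38.0, 36.2 and 64.8 CPM against 21.2, 14.6 and 24.2 CPM (log2 difference 1.21, SE 0.33; DESeq2 adjusted p = 0.020).

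In the conduction list 10 of 18 genes were lower in every TAC heart and 2 higher (background 14% and 14.1%), and 4 passed DESeq2 lower (background 2.87%), with a median log2 difference of -1.16. Gja1, connexin 43 of the gap junctions between muscle cells, was at 459.7, 420.4 and 417 CPM in the control hearts and 126, 220.2 and 117 CPM in the TAC hearts (log2 difference -1.48, SE 0.36; edgeR adjusted p = 0.14, DESeq2 0.0019). The pacemaker channel Hcn2 was at 17.3, 17.6 and 17.9 CPM in control and 2.64, 11.6 and 1.01 CPM in TAC hearts. Its relative Hcn4 was at 6.40, 8.75 and 7.34 CPM in control and 1.91, 4.68 and 0.370 CPM in TAC hearts. All 3 TAC hearts were below all controls for Gja1, Hcn2 and Hcn4. Adrb1, the main beta-adrenergic receptor of heart muscle, stood at 15.8, 18.5 and 19.1 CPM in control and 4.89, 11.2 and 1.65 CPM in TAC hearts (log2 difference -1.59, SE 0.57; DESeq2 adjusted p = 0.058). Chrm2, the muscarinic receptor of vagal braking, was at 109, 111 and 104 CPM in control and 17.8, 51.6 and 4.47 CPM in TAC hearts (log2 difference -2.13; DESeq2 adjusted p = 0.024). Both receptors were below every control in all 3 TAC hearts, with TAC replicate 3 the lowest. The adrenergic and cAMP list as a whole had a median log2 difference of -0.59, with 7 of 21 genes lower in every TAC heart and 2 higher, against 14% and 14.1% of all genes.

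**Figure D3:**
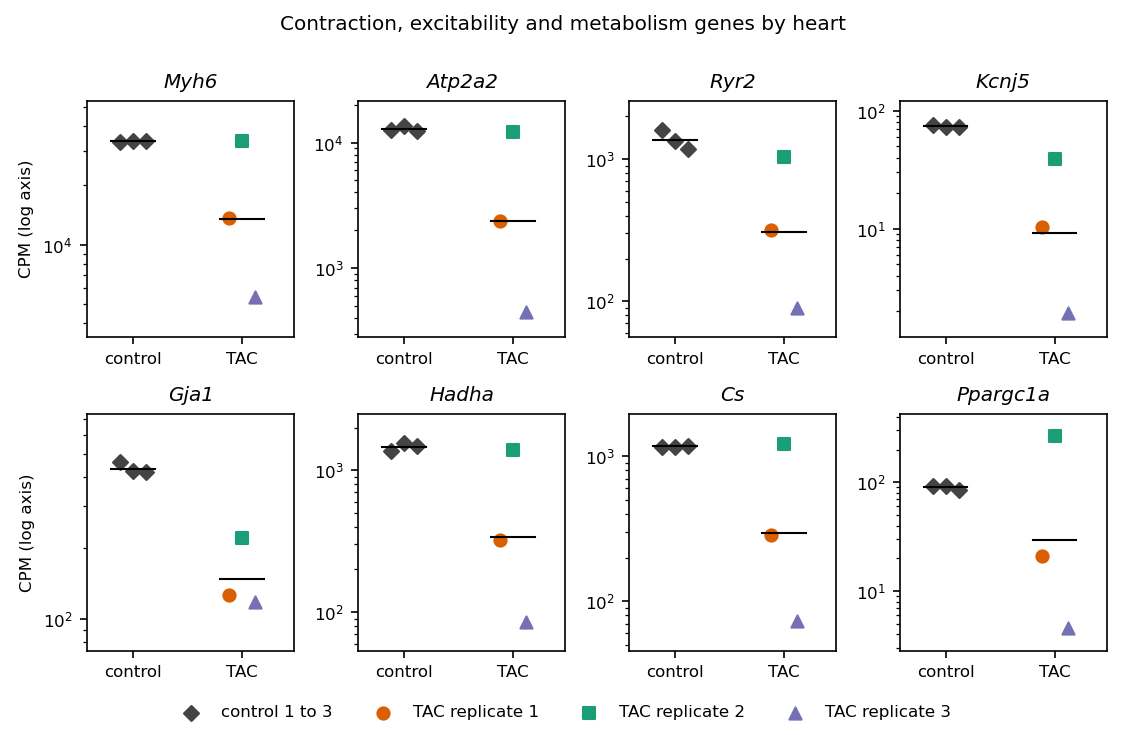
Normalised level (CPM, log axis) of 8 muscle and metabolism genes in each control heart (diamonds) and in TAC replicates 1 (circle), 2 (square) and 3 (triangle), with lines at the geometric means. TAC replicate 3 is the lowest heart in all 8 panels, TAC replicate 2 lies among or near the controls for Myh6, Hadha and Cs, and for Ppargc1a it stands above them at 265 CPM.

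Of 29 cardiac transcription factors 14 were lower in every TAC heart (background 14%) and 6 passed DESeq2 lower (background 2.87%), with a median log2 difference of -0.61. Mef2a, a factor for muscle genes, was at 188, 194 and 187 CPM in the control hearts and 97.8, 131 and 85.4 CPM in the TAC hearts (log2 difference -0.86, SE 0.23; DESeq2 adjusted p = 0.0053). Sox4, of the SOX family, was one of the most even genes, with 36.4, 34.3 and 36.3 CPM in control and 15.2, 13.9 and 16.0 CPM in TAC hearts (log2 difference -1.25; DESeq2 adjusted p = 0.024). Nr3c2, the mineralocorticoid receptor, was at 22.7, 29.1 and 23.1 CPM in control and 9.34, 11.0 and 1.93 CPM in TAC hearts (DESeq2 adjusted p = 0.018). Sox9, which drives cartilage and matrix genes, was above every control at 4.15, 3.31 and 11.1 CPM against 1.47, 1.78 and 2.12 CPM (DESeq2 adjusted p = 0.0093). Ppargc1a, the coactivator of mitochondrial biogenesis, lay on both sides of control, at 93.1, 92.1 and 85.4 CPM in the control hearts and 20.9, 265 and 4.54 CPM in the TAC hearts. Its log2 difference of 0.10 (SE 1.06) averages 1 heart far above and 2 hearts far below control, and without TAC replicate 2 it was -2.83 (adjusted p = 0.015). Its relative Ppargc1b was below every control in all 3, at 4.16, 11.3 and 3.29 CPM against 19.6, 19.0 and 16.6 CPM in control (DESeq2 adjusted p = 0.030).

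None of the 31 fatty acid genes, 17 tricarboxylic acid cycle genes and 20 branched-chain amino acid and ketone genes had a log2 difference above 0, and their medians were -1.001, -0.81 and -1.01. No member passed DESeq2 in any of the 3 lists. Without TAC replicate 2 edgeR called 23, 9 and 17 of them lower (14% of all genes). With TAC replicate 3 left out instead, the list medians were -0.61, -0.44 and -0.52. In TAC replicates 1 and 3 all 31 fatty acid genes were below all controls, against 37.2% and 42.9% of all genes, and in TAC replicate 2 it was 8 of 31, against 34.3%. Hadha, a subunit of the mitochondrial enzyme that oxidizes long-chain fatty acids, was at 1367, 1562 and 1485 CPM in the control hearts and 323, 1391 and 85.6 CPM in the TAC hearts (log2 difference -1.29, SE 0.84; edgeR adjusted p = 0.37, without TAC replicate 2 -2.85, adjusted p = 0.019). Lpl, which frees fatty acids from blood lipids, was at 5819.6, 6076 and 5879.7 CPM in control and 2341, 5758 and 942 CPM in TAC hearts. Cs, citrate synthase, was at 1158, 1164 and 1174 CPM in control and 286, 1219.7 and 73.0 CPM in TAC hearts. Hearts stood in the same order in branched-chain amino acid breakdown, where Ppm1k, the phosphatase that activates the pathway's dehydrogenase, was at 118, 127 and 99.4 CPM in control and 21.3, 74.9 and 7.63 CPM in TAC hearts. TAC replicate 2 had medians of 0.03, 0.19 and 0.07 in these lists, with 10 of 31, 15 of 17 and 10 of 20 genes above all controls (33.9% of all genes in that heart). The medians in TAC replicate 3 were -3.68, -3.50 and -3.19.

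The subunits of oxidative phosphorylation encoded in the nucleus lay on opposite sides of control in different TAC hearts. In TAC replicate 2, 51 of 52 were above all controls (33.9% of all genes in that heart), by a median of 0.25 on the log2 scale. In TAC replicate 3 all 52 were below all controls (42.9% of all genes in that heart), with a median of -2.28, and TAC replicate 1 lay near control at -0.06. The 13 mRNAs of the mitochondrial genome had medians of 0.23, -0.04 and -0.99. Glucose and lactate genes had a median log2 difference of -0.56, and medians of -0.76, 0.23 and -1.90 in TAC replicates 1, 2 and 3. In TAC replicate 2, 23 of the 28 were above all controls and 1 below (33.9% and 34.3% of all genes in that heart). Pfkp, a platelet-type phosphofructokinase, was above every control at 68.0, 71.4 and 124 CPM against 48.0, 37.7 and 50.4 CPM in control (DESeq2 adjusted p = 0.022). Ckb, the brain form of creatine kinase, was also above every control (67.9, 34.8 and 98.9 against 29.9, 30.9 and 28.9 CPM, DESeq2 adjusted p = 0.021), whereas the muscle form Ckm was at 891, 1615 and 131 CPM against 1384, 1325 and 1421 CPM in control. Pdk4, a brake on glucose oxidation, varied in controls too (289, 738 and 435 CPM) and was at 136, 469 and 43.6 CPM in TAC hearts.

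Matricellular genes, which signal between matrix and cells more than they bear load, had the largest median of the 51 lists. Of the 24 matricellular and activated fibroblast genes 23 had a log2 difference above 0, 15 were higher in every TAC heart (background 14.1%) and 16 passed DESeq2 (background 5.67%), with a median of 2.54. Postn, the matrix protein periostin of activated fibroblasts (chromosome 3, 54361109 to 54391037, GRCm38), was at 35.1, 24.2 and 31.1 CPM in the control hearts and 409, 45.8 and 1074 CPM in the TAC hearts (log2 difference 4.08, SE 1.08; edgeR adjusted p = 0.14, DESeq2 0.00048). Comp, cartilage oligomeric matrix protein, was at 1.33, 2.61 and 1.71 CPM in the control hearts and 74.8, 2.21 and 214 CPM in the TAC hearts (log2 difference 5.69, SE 1.37; DESeq2 0.00070), and TAC replicate 2 lay within the control range. Thbs4, a thrombospondin of stressed muscle and matrix, was at 2.69, 2.74 and 2.87 CPM in control and 107, 6.54 and 208 CPM in TAC hearts. Ltbp2, which binds microfibrils, was at 3.08, 1.30 and 3.67 CPM in control and 85.5, 5.41 and 230.2 CPM in TAC hearts. For these genes TAC replicate 3 was the highest and TAC replicate 2 was near the controls.

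Other matricellular genes were clear of the controls in TAC replicate 2 as well. Thbs1, which activates latent TGF-beta, was at 9.59, 5.24 and 6.88 CPM in the control hearts and 65.5, 33.1 and 74.3 CPM in the TAC hearts, with a log2 difference of 2.99 (SE 0.35; edgeR adjusted p = 0.083, DESeq2 1.1e-11). Ccn1, of the same family as Ccn2, was at 33.0, 32.8 and 36.9 CPM in control and 124, 89.8 and 89.3 CPM in TAC hearts (log2 difference 1.56; DESeq2 5.0e-06). Collagen genes stood nearer to control. In the list of 18 collagens 17 had a log2 difference above 0 with a median of 0.97, 5 passed DESeq2 (background 5.67%), and only Col12a1, of tendon-like matrix, separated the groups (0.724, 0.567 and 0.813 CPM in control and 18.6, 1.59 and 23.96 CPM in TAC hearts). Col1a1 was at 71.8, 66.5 and 82.3 CPM in the control hearts and 178, 62.6 and 289.6 CPM in the TAC hearts (log2 difference 1.26, SE 0.47; edgeR adjusted p = 0.18). Its edgeR log2 difference was 1.66 without TAC replicate 2 (adjusted p = 0.011) and 0.70 without TAC replicate 3 (adjusted p = 0.45). Col3a1 was at 193, 166 and 197 CPM in control and 301, 119 and 511 CPM in TAC hearts. In TAC replicate 2, 10 of the 18 collagens were below all controls, against 34.3% of all genes in that heart. Acta2, smooth muscle actin and a mark of contractile fibroblasts, did not separate (34.9, 61.6 and 45.9 CPM in control and 46.6, 68.0 and 36.5 CPM in TAC hearts).

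**Figure D4:**
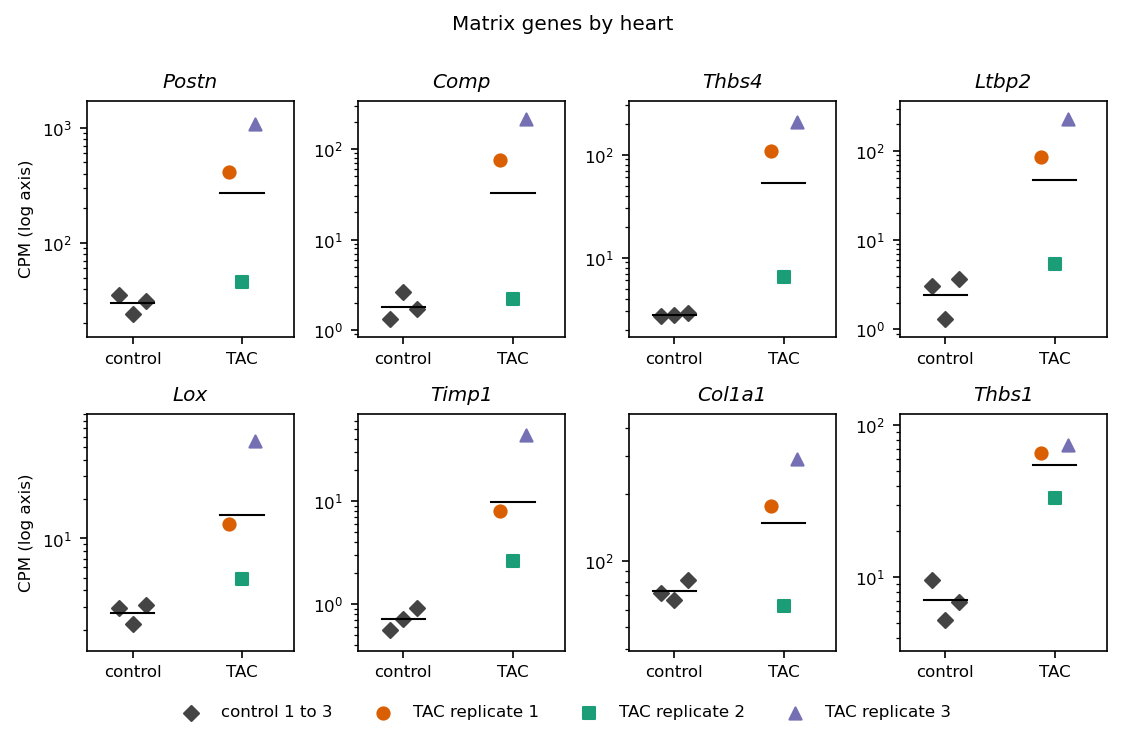
Normalised level (CPM, log axis) of 8 matrix genes in each control heart (diamonds) and in TAC replicates 1 (circle), 2 (square) and 3 (triangle), with lines at the geometric means. TAC replicate 3 is the highest heart in all 8 panels, TAC replicate 2 lies within or near the controls for Comp and Col1a1, and Thbs1 is at 33.1 CPM or more in each TAC heart.

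Among enzymes and fibres that mature the matrix, 13 of 23 elastic fibre and crosslinking genes were higher in every TAC heart (background 14.1%) and 12 passed DESeq2 (background 5.67%; median 1.18). Lox, which crosslinks collagen and elastin, was at 2.91, 2.21 and 3.07 CPM in the control hearts and 12.8, 4.91 and 56.3 CPM in the TAC hearts (log2 difference 3.17, SE 0.85; DESeq2 adjusted p = 0.0023). The collagen chaperone Serpinh1 was at 119, 115 and 107 CPM in control and 203, 219 and 375 CPM in TAC hearts (DESeq2 adjusted p = 0.0011). P4ha1, a subunit of prolyl hydroxylase, was at 32.2, 26.4 and 29.3 CPM in control and 44.7, 69.0 and 65.4 CPM in TAC hearts (DESeq2 adjusted p = 0.0019). Both were above the controls in TAC replicate 2 too. Small proteoglycans followed, with Bgn, biglycan, at 156, 136 and 141 CPM in control and 712, 185 and 1129 CPM in TAC hearts and 7 of 13 passing DESeq2 (background 5.67%). Basement membrane genes had a median of 0.20, and medians of 0.16, -0.16 and 0.40 in TAC replicates 1, 2 and 3. DESeq2 called none of the 15 (background 5.67% higher and 2.87% lower). Of 23 protease and inhibitor genes 12 passed DESeq2, all higher (background 5.67%). Timp1, an inhibitor of matrix metalloproteinases, was at 0.569, 0.720 and 0.921 CPM in the control hearts and 8.01, 2.64 and 43.4 CPM in the TAC hearts (log2 difference 4.61, SE 1.03; DESeq2 2.3e-05). Adamts1, a secreted protease that cleaves proteoglycans, was among the most even of the separated genes, with 34.3, 44.5 and 36.2 CPM in control and 95.2, 92.7 and 103 CPM in TAC hearts (DESeq2 adjusted p = 4.4e-06).

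Of 26 TGF-beta, activin and BMP genes 13 were higher in every TAC heart (background 14.1%) and DESeq2 called 9 higher (background 5.67%). The counts of lower genes, 4 and 1 of 26, were near the background of 14% and 2.87%. The ligand gene Bmp4 was at 4.77, 3.95 and 4.89 CPM in control and 17.3, 6.83 and 25.6 CPM in TAC hearts (DESeq2 adjusted p = 0.0043). Inhba, a subunit of activin A, was at 1.06, 1.53 and 1.32 CPM in control and 6.19, 1.997 and 4.004 CPM in TAC hearts (DESeq2 0.0041). Gdf15, a stress-induced hormone, was at 1.10, 0.123 and 0.777 CPM in control and 4.17, 3.21 and 11.4 CPM in TAC hearts (DESeq2 0.00072). In all 3 ligand genes TAC replicate 2 was above the controls, whereas the groups overlapped for Tgfb1 (18.6, 22.6 and 20.8 CPM in control and 31.2, 21.4 and 48.8 CPM in TAC hearts) and for Tgfb2 (13.4, 10.6 and 10.9 CPM in control and 22.9, 12.2 and 16.7 CPM in TAC hearts). Fstl3, an extracellular activin inhibitor, was at 2.83, 2.54 and 2.56 CPM in control and 8.36, 6.21 and 15.5 CPM in TAC hearts (DESeq2 0.0031). Smad2, a signal carrier of the pathway, was the member DESeq2 called lower, by little: 19.6, 21.0 and 18.5 CPM in control and 13.7, 15.5 and 13.5 CPM in TAC hearts (DESeq2 0.034). The resident fibroblast marker Tcf21 was at 4.90, 6.44 and 6.39 CPM in the control hearts and 5.98, 6.07 and 6.89 CPM in the TAC hearts (log2 difference 0.10, SE 0.20), with the groups overlapping, and Pdgfra was at 33.2, 31.2 and 33.0 CPM in control and 44.4, 27.5 and 34.7 CPM in TAC hearts. The 16 markers of that list, 13 with a log2 difference above 0, summed to 1331 to 1521 CPM in control and 2495, 1502 and 2421 CPM in TAC hearts, and their part in the matrix results was not tested.

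Of 22 neurohormone genes 5 were higher and 3 lower in every TAC heart (background 14.1% and 14%), and DESeq2 called 5 higher and 2 lower (background 5.67% and 2.87%). Ace, the enzyme that makes angiotensin II, was at 59.0, 54.4 and 61.6 CPM in the control hearts and 167, 87.1 and 232 CPM in the TAC hearts (log2 difference 1.47, SE 0.40; DESeq2 adjusted p = 0.012), while Agtr1a, its main receptor, was at 36.3, 44.6 and 41.7 CPM in the control hearts and 10.6, 20.6 and 4.32 CPM in the TAC hearts (log2 difference -1.79, SE 0.45; DESeq2 0.0065). Edn3, an endothelin, was highest in TAC replicate 1, with 0.724, 0.613 and 0.263 CPM in control and 8.90, 4.59 and 1.39 CPM in TAC hearts (DESeq2 6.4e-05). Adm, the vasodilator adrenomedullin, was even across the TAC hearts (5.82, 5.47 and 5.08 CPM in control and 9.98, 9.39 and 10.6 CPM in TAC hearts, DESeq2 0.00082). Npr1, the receptor of the natriuretic peptides, was at 22.9, 28.0 and 25.1 CPM in control and 44.7, 32.9 and 89.0 CPM in TAC hearts (DESeq2 0.034), and Corin, which cleaves their precursors, at 182, 221 and 173 CPM in control and 47.2, 197 and 61.6 CPM in TAC hearts.

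Of 36 growth factor and receptor genes DESeq2 called 9 higher and 4 lower (background 5.67% and 2.87%). Fgf16, a factor secreted by heart muscle, was at 11.8, 18.5 and 15.5 CPM in the control hearts and 3.10, 5.12 and 1.27 CPM in the TAC hearts (log2 difference -2.27, SE 0.44; DESeq2 adjusted p = 0.00013). Angpt1, which stabilizes vessels, was below every control (4.09, 14.7 and 1.84 against 29.3, 66.5 and 26.3 CPM, DESeq2 0.0048), while Vegfa, which drives vessel growth, was above every control (382, 420.5 and 716 against 294, 233 and 277 CPM, DESeq2 0.023). Pgf, of the same family, was at 3.81, 4.43 and 5.60 CPM in control and 6.22, 10.9 and 38.6 CPM in TAC hearts (DESeq2 0.014). Hbegf, an EGF receptor ligand, stood out in TAC replicate 2 at 52.0 CPM, with 14.1 and 16.6 CPM in the other TAC hearts and 10.8 to 11.5 CPM in controls. Deptor, an inhibitor of mTOR, was evenly below control (21.2, 22.2 and 21.2 CPM in control and 13.9, 11.6 and 10.2 CPM in TAC hearts; log2 difference -0.86, SE 0.17, DESeq2 0.00010).

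Ribosomal protein genes stood a little above control in all 3 TAC hearts. In this list 47 of 48 had a log2 difference above 0, 44 were higher in every TAC heart (background 14.1%) and 16 passed DESeq2 (background 5.67%), at a median of 0.59. The TAC hearts stood at 0.80, 0.27 and 0.74. Such short, abundant mRNAs have many pseudogene copies, so reads may be shared with them. Ribosome biogenesis and Myc network genes had a median of 0.12. Cell cycle genes stood at 0.44, -0.26 and 1.63 in the 3 TAC hearts. Mki67, a mark of dividing cells, was at 9.22, 4.31 and 3.46 CPM in the control hearts and 5.97, 2.96 and 30.3 CPM in the TAC hearts. DESeq2 called 1 of the 24 genes higher, near the background of 5.67%. Circadian genes had a median of -0.07 and no DESeq2 call among 18 (background 5.67% higher and 2.87% lower). Of the 18, 3 were higher and 3 lower in every TAC heart (background 14.1% and 14%). The 3 higher were Per1, Cry1 and Per2, the last at 21.9, 28.0 and 24.7 CPM in control and 40.9, 65.9 and 123 CPM in TAC hearts (DESeq2 adjusted p = 0.14).

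Endothelial markers had a median log2 difference of 0.81, and 9 of 20 passed DESeq2 higher (background 5.67%), among them Ly6c1 at 68.7, 72.9 and 73.7 CPM in control and 222, 162 and 442 CPM in TAC hearts (DESeq2 adjusted p = 0.00061) and the water channel Aqp1 at 219, 193 and 256 CPM in control and 492, 445 and 865 CPM in TAC hearts. Kdr, the main VEGF receptor, was below every control in TAC replicates 2 and 3 (210.0, 216 and 215 CPM in control and 265, 127 and 175 CPM in TAC hearts). Macrophage markers had a median of 0.23 (3 of 18 by DESeq2, background 5.67%) and lymphocyte markers 0.55 (0 of 12), and without TAC replicate 3 both medians were -0.14. Of 12 neutrophil markers 6 were measured, and the defining Ly6g, Mpo and Elane had 0 counts in all 6 hearts. The 6 measured ones had a median of 1.39, or 0.16 without TAC replicate 3. Of these, 5 had a log2 difference above 0 (background 51.5%) and DESeq2 called 1 higher (background 5.67%). They summed to only 1.81 to 3.27 CPM in control and 6.37, 4.93 and 12.5 CPM in TAC hearts. Among cytokine genes, 6 of 34 passed DESeq2 higher (background 5.67%). Their median was 0.90, or 0.29 without TAC replicate 3, and the TAC hearts stood at 0.19, 0.09 and 1.17. Osmr, the oncostatin M receptor, was at 18.2, 18.3 and 16.2 CPM in control and 32.9, 28.6 and 128 CPM in TAC hearts. Ccl9, a chemokine, was at 4.87, 4.11 and 5.10 CPM in control and 10.2, 9.78 and 22.5 CPM in TAC hearts. Il6 had 0 counts in each control heart, where 3 counts would be 0.0359 to 0.0460 CPM, and stood at 0.372, 0.125 and 2.45 CPM in the TAC hearts. Epicardial markers stood at 1.02, 0.91 and 0.01 in the 3 TAC hearts, with 12 of 12 above 0 in the fit (background 51.5%). Interferon response genes were at 0.82, -0.29 and 1.03, with 2 of 20 higher and 1 lower by DESeq2, near the background of 5.67% and 2.87%.

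Outside the lists, the protein-coding genes with the widest gap between the groups were chosen by this same contrast and are a description. On the higher side they included Slc10a6, a steroid sulfate transporter (1.47, 1.55 and 2.08 CPM in control and 7.51, 7.64 and 11.8 CPM in TAC hearts), Map3k6, a stress kinase (7.82, 9.10 and 10.9 CPM in control and 34.3, 39.1 and 103 CPM in TAC hearts), and Angptl7, a secreted angiopoietin-like protein (1.23, 0.644 and 1.423 CPM in control and 28.5, 5.69 and 46.5 CPM in TAC hearts). On the lower side were Hipk2, a nuclear kinase (80.9, 69.7 and 64.2 CPM in control and 3.39, 19.9 and 2.86 CPM in TAC hearts), Prox1, a homeobox factor (79.6, 69.3 and 71.0 CPM in control and 22.1, 25.4 and 5.98 CPM in TAC hearts), and Mfsd4a, a membrane transporter (16.1, 14.6 and 19.7 CPM in control and 1.41, 3.81 and 1.39 CPM in TAC hearts). Among the genes chosen for the size of their log2 difference was Dio2, which activates thyroid hormone, at 1.36, 0.598 and 0.478 CPM in control and 26.4, 0.640 and 51.1 CPM in TAC hearts, with TAC replicate 2 inside the control range. Of the genes that separated, 589 were at least 2-fold higher and 456 at least 2-fold lower among those with a mean of 5 CPM or more, and the most even across TAC hearts were Pdlim3, a Z-disc protein (4.90, 7.97 and 5.67 CPM in control and 17.8, 15.6 and 17.2 CPM in TAC hearts), Tsc22d3, a glucocorticoid-induced factor (51.1, 60.1 and 54.1 CPM in control and 146, 131 and 160.0 CPM in TAC hearts), and Crem, a repressor of cAMP-driven genes (6.72, 6.28 and 5.17 CPM in control and 11.3, 12.8 and 12.8 CPM in TAC hearts). Their evenness was the ground of their choice. Hnrnpa3, an RNA-binding protein, was also selected (52.5, 50.5 and 50.5 CPM in control and 7.69, 6.05 and 18.1 CPM in TAC hearts), but the KO-TAC hearts held both levels (63.6, 9.46 and 9.01 CPM) and DESeq2 gave it no adjusted p.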

How the data were processed

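RNA-seq of heart tissue was deposited by the authors as 1 table of raw gene counts, not normalized. The submitters' processing notes name StringTie 2.2.1, HISAT2 2.2.1, DESeq2 1.42.0, SAMtools 1.15 and Trim Galore 0.6.10, and as builds mm10 and GRCm38. For the counting program, annotation and strand setting nothing was found: not given in the sources used here.

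From 55401 rows, 19051 genes passed edgeR's filter (filterByExpr, minimum count 10), and 97.7% of these matched GENCODE vM21 symbols for positions. edgeR 4.0.16 (R 4.3.3) was fitted to all 9 libraries with TMM factors and the group as the only term, giving log2 differences, standard errors and two-sided p-values with Benjamini-Hochberg adjustment. DESeq2 1.42.0 and limma 3.58.1 (voom) were alternatives, beside RLE and upper-quartile factors, no filter, 6 libraries only, a replicate block, removal of mitochondrial genes, and each library left out. Per-heart list medians used log2 of CPM + 0.5. The model code was tested on simulated counts. Replicate libraries differed beyond counting noise.

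Members and lists were chosen with earlier results of these data known. Named by rule were 11 heart genes, up to 3 genes of largest difference and the most abundant gene of each list, and outside the lists the 12 widest gaps, 8 largest and 8 most even differences each way. A few genes that the rule names are not reported here. Others were named after their values were seen: Abra, Ace, Acta2, Actc1, Adm, Adnp, Adrb1, Atf4, Bin1, Bmp4, Ccn1, Cryab, Csrp3, Deptor, Edn3, Egr1, Fos, Gadd45a, Gja1, Hadha, Hbegf, Hcn4, Hopx, Il6, Inhba, Irs2, Junb, Kcnd2, Kcnh2, Kdr, Maff, Mef2a, Myl4, Myl7, Nnt, Npr1, Nr4a1, P4ha1, Pdgfra, Pdk4, Pfkp, Pgf, Phgdh, Pln, Ppargc1a, Ppargc1b, Rcan1, Smad2, Tgfb1, Tgfb2, Tead1 and Tnfrsf12a.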

Additional observations from a re-analysis of the deposited data

How the results depend on the processing

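The number of genes that edgeR called was 0 with TMM, RLE or upper-quartile factors, without the filter, with 6 libraries, without mitochondrial genes and with the replicate number as a block (3436 unadjusted). DESeq2 called 1626 and limma-voom 5756. Leaving out 1 library at a time gave 0 to 5477 calls: 1 without TAC replicate 1, 5477 without TAC replicate 2, 2 without TAC replicate 3 and 0 with any 1 control left out. DESeq2 without TAC replicate 2 called 7134 and without TAC replicate 3 called 759, both chosen after seeing the data. The cause was not tested. Genes with separate groups numbered 5349 with TMM, 5323 with RLE, 5403 with upper-quartile factors and 5787 without the filter. Hearts with the same number in their titles did not deviate together (correlations 0.0065, 0.037 and 0.0011). Other deposited labels number the TAC hearts from 2 up. By those numbers the correlations were -0.0066 (control replicate 2 with TAC replicate 1) and -0.0014 (control replicate 3 with TAC replicate 2). The labels do not say what the numbers mark, so they were not taken as pairs, and the block by title number added no call.

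Some log2 differences changed sign when 1 library was left out, and their range over the 6 such fits is given. Without TAC replicate 3 this held for Hspg2 (-0.022 to 0.39), Sqstm1 (-0.59 to 0.16), Hspb7 (-1.36 to 0.17), mt-Co1 (-0.41 to 0.027), Mb (-0.92 to 0.12), Aldoa (-0.76 to 0.081), Rps2 (-0.31 to 0.14), Mki67 (-0.35 to 1.75), Tef (-0.11 to 0.053), Des (-0.46 to 0.24), Cidea (-0.56 to 0.29), Cdh19 (-0.038 to 0.46), Actc1 (-1.34 to 0.26) and the lymphocyte marker median (-0.14 to 0.88). Without TAC replicate 2 it held for Irs2 (-0.30 to 1.35), Kdr (-0.51 to 0.037), Ppargc1a (-2.83 to 0.66) and the neurohormone median (-0.066 to 0.12). Without TAC replicate 1 it held for Cryab (-0.088 to 0.70), Myl7 (-0.51 to 1.52) and Pdgfra (-0.068 to 0.28), and without control replicate 1 for Tcf21 (-0.027 to 0.16). More than 1 library turned Ighm (-0.29 to 0.47), Acta2 (-0.20 to 0.31) and Csrp3 (-0.31 to 0.48). The list medians named so far are those whose size exceeded their spread over the TAC hearts. Medians within that spread changed sign too, among them these. Without TAC replicate 3 the medians were 0.094 for filament, 0.11 for nuclear oxidative phosphorylation and 0.069 for mitochondrial genome genes. They were -0.14 for macrophage and -0.016 for basement membrane genes. Without TAC replicate 2 the heat-shock median was -0.044. The replicate block gave Ighm at -0.24, Csrp3 at -0.10, Myl7 at -0.026 and Ppargc1a at -0.94. Upper-quartile factors gave Rps2 at 0.0060 and Tef at 0.026. With 3 hearts a group and a biological coefficient of variation of 42.1%, counting depth limits only genes of a few counts, such as Il6.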

Other observations

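Some genes were far lower in 1 heart than in all the others. Among protein-coding genes at 5 CPM or more in the other 5 hearts, 30 were over 8-fold below all of them in TAC replicate 3, against 1 in TAC replicate 1, 1 in TAC replicate 2 and 0 in any control heart. Among the 30 were the muscle and metabolism genes Fabp3, Hadh, Ldhb and Actc1. Nnt, the mitochondrial transhydrogenase known to be lost in the C57BL/6J strain, was at 445, 172 and 432 CPM in the control hearts and 99.4, 162 and 0 CPM in the TAC hearts and at 78.3, 269.7 and 143 CPM in the KO-TAC hearts. The 3-count floor in TAC replicate 3 is 0.0347 CPM, and the strain of each heart was not tested. Adnp, a widely expressed chromatin factor, was at 33.6, 52.6 and 50.3 CPM in the control hearts and 43.0, 26.1 and 0.116 CPM in the TAC hearts.

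TAC replicate 2 had its own high genes. Abra, an actin-binding activator of serum response factor, was at 31.9, 23.7 and 24.5 CPM in the control hearts and 84.2, 262 and 58.2 CPM in the TAC hearts. Irs2, an adaptor of the insulin receptor, was at 11.9, 16.4 and 10.5 CPM in control and 14.4, 51.8 and 6.72 CPM in TAC hearts, and Ppargc1a, given above, was at 265 CPM in that heart. These genes were chosen after their values were seen and are given as values.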
